A study of Rattus norvegicus with 4 samples.

Results

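The 10 genes described here encode antioxidant enzymes that are linked to the transcription factor NRF2. Thioredoxin (Txn1), thioredoxin reductase (Txnrd1) and peroxiredoxin (Prdx1) belong to the thioredoxin system, and Gclc and Gpx2 to the glutathione system. Sod1, Sod2 and Cat remove superoxide and hydrogen peroxide, and Nqo1 and Hmox1 act on quinones and haem. They were chosen by symbol, as members of this pathway, among 15502 genes named on the array. All 10 were on the array, with 15 probes in all, and every gene had at least 1 probe that could be tested. The RNA was from colon mucosa, and the rats were of the inbred strain F344. The treated rats received resveratrol, a polyphenol found in grapes, for 20 days at a daily dose of 1 mg per kg, and the controls ate standard chow. Both groups then drank 5% dextran sodium sulphate (DSS) for 5 days, which injures the colonic epithelium and causes colitis, so no uninjured colon was compared. Each of 4 arrays held Cy5-labelled RNA pooled from 2 of 8 resveratrol plus DSS rats, and Cy3-labelled RNA of a DSS control pool. The dyes were never exchanged, so a dye effect of a probe and an effect of resveratrol cannot be told apart. The design names 8 biological samples in either group. How many of the control rats the pool held, and the age and sex of the rats, are not given in the sources used here.

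Under basal conditions the adaptor KEAP1 holds NRF2 (encoded by Nfe2l2) for ubiquitination by a ligase built on CUL3 and RBX1. Electrophiles and oxidants modify KEAP1, and NRF2 then enters the nucleus, pairs with a small MAF protein and binds antioxidant response elements in the promoters of its target genes. BACH1, a haem-binding repressor, occupies many of the same elements, that of Hmox1 among them. Sod1, Sod2 and Cat also answer to other transcription factors. In the gut these enzymes protect the epithelium against oxidants made by its own metabolism and by infiltrating phagocytes.

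Values are log2 ratios of resveratrol plus DSS over the DSS control pool after within-array loess normalization, so positive means higher with resveratrol plus DSS. Errors after ± are moderated standard errors from limma, and n is the number of arrays with a usable spot. A call is an adjusted p below 0.05 (limma, Benjamini-Hochberg over 18896 tested probes). The test sets the ratios against 0 and leaves out any spread of the control pool. Replicates 1 and 2 lay on slide 1 and replicates 3 and 4 on slide 2. The scanner software flagged 3.45%, 4.68%, 11.0% and 13.7% of spots on replicates 1 to 4 as outliers, and these spots were left out. Among the brightest 10% of spots the flagged shares were 16.7%, 17.8%, 51.2% and 60.6%. Bright spots on slide 2 were thus missing far more often than dim ones, which touches the brightest of the 10 genes. All 10 markers of colonic epithelium were well above background in both channels on all 4 arrays. Because tissue RNA was measured, fewer cells of a type and less RNA per cell cannot be told apart.

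By its brightest tested probe, each of Txn1, Txnrd1, Prdx1, Cat and Nqo1 was called higher with resveratrol plus DSS, and Hmox1 was called lower. Gclc, Gpx2, Sod1 and Sod2 were not called. Over the 9430 named genes tested in the same way, 25.7% were called higher and 19.6% lower, 45.3% together. The median log2 ratio was 0.32 over the 10 genes and 0.02 over all named genes. Of the 7 genes of the set with values on 4 arrays, 5 had the same sign on all of them, all positive, namely Txnrd1, Prdx1, Gclc, Cat and Nqo1. Over all named genes with 4 values, 62.7% had the same sign throughout. Counted by probe, 6 of the 14 tested probes were called higher and 2 lower, where 24.3% and 22.7% of all tested probes were.

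**Figure D1:**
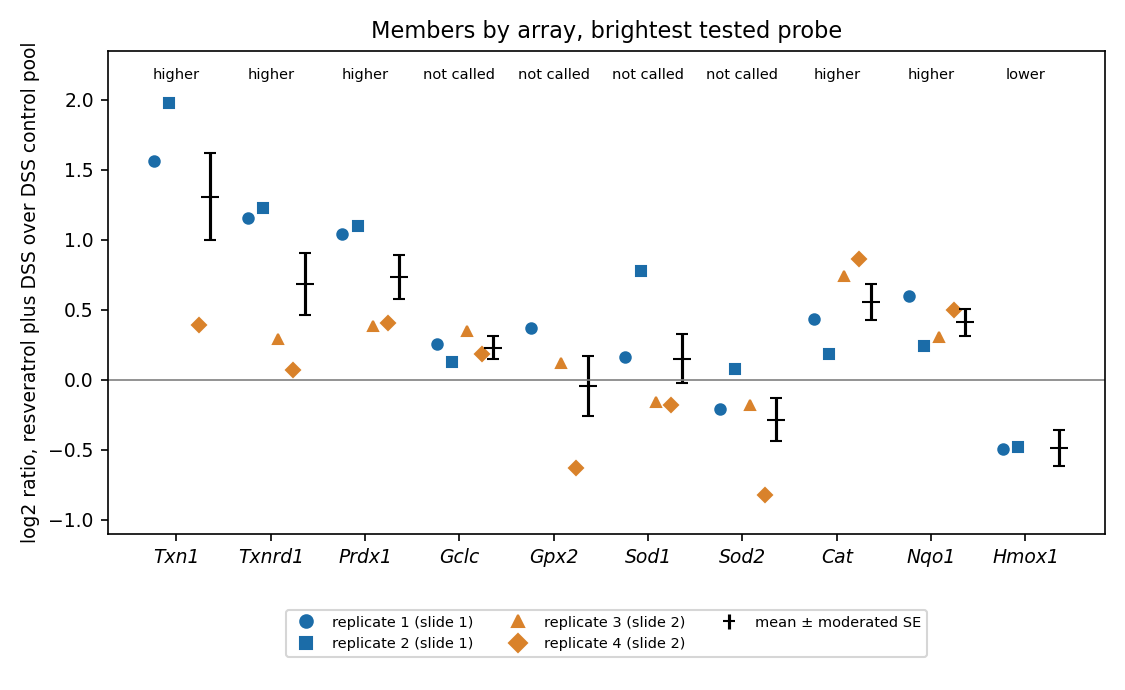
Log2 ratio of resveratrol plus DSS over the DSS control pool (y axis) for each of the 10 genes by its brightest tested probe, with 1 point per array and the mean with its moderated standard error beside the points. Missing points are outlier-flagged spots. Txn1, Txnrd1 and Prdx1 were higher on both arrays of slide 1 than on slide 2, Cat was higher on slide 2, and Hmox1 had values on slide 1 alone.

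The thioredoxin system passes electrons from NADPH through thioredoxin reductase to thioredoxin, which reduces disulfides in other proteins and recharges peroxiredoxins. Txn1, encoding cytosolic thioredoxin, had log2 ratios of 1.56 and 1.97 on replicates 1 and 2 and of 0.39 on replicate 4, and its spot on replicate 3 was flagged. All 3 usable arrays were above 0, with the arrays of slide 1 well above that of slide 2. The mean was 1.31 ± 0.31 (n = 3, adjusted p = 0.0263), a 2.48-fold higher level. The Cy5 spot was saturated on replicate 2, so that ratio is limited by the scanner. On replicate 1 the spot carried no saturation flag, but its mean Cy5 signal was higher still, so its ratio may be limited too. The mean signals behind these ratios were 64741, 63739, 23572 and 41567 in Cy5 (resveratrol plus DSS) and 6351, 9772, 14333 and 18155 in Cy3 (DSS control pool) on replicates 1 to 4. In the authors' deposited value table Txn1 was at 0.83 (adjusted p = 0.092) and was not called. That table holds Txn1 on replicates 1 and 4 alone, at 1.42 and 0.24, so its mean lacks replicate 2. The fit without replicate 2, given below, rests on the same 2 arrays. The Txn1 probe spans positions chr5:75926523-75927863 of the rn3 build, on the minus strand. Its 60 bases are placed over a span of 1341 bases, so the placement is split. Without replicate 1 the mean was 1.18 (adjusted p = 0.0888) and without replicate 2 it was 0.98 (adjusted p = 0.0817). Neither passed the threshold, and fewer probes were called higher over the whole table too, 12.0% without replicate 1 and 12.1% without replicate 2.

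Txnrd1, encoding the selenoenzyme that reduces thioredoxin, had 4 probes, and they did not give the same answer. Their sequences are shown because the result for the gene depends on which is read. Names give the rn3 coordinates of the probe or of the part of it that was placed.
A_44_P134070, chr7:23075799-23075832, minus strand: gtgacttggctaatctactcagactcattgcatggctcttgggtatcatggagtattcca
A_44_P427702, chr7:23075875-23075934, plus strand: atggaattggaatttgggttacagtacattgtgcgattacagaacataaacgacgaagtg
A_44_P554454, chr7:23076971-23077030, minus strand: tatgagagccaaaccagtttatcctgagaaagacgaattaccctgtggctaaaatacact
A_44_P456738, chr7:23093333-23095211, minus strand: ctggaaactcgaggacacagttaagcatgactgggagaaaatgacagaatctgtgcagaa
All 4 were printed in lower case with no part set apart, and for A_44_P134070 only 34 bases are placed. The brightest probe, A_44_P554454, had log2 ratios of 1.16, 1.23, 0.29 and 0.07 on replicates 1 to 4, with a mean of 0.69 ± 0.22 (n = 4, adjusted p = 0.0462). Every array was above 0, but replicate 4 barely so. A_44_P134070, nearest to the 3′ end, had 1.32, 1.19, 0.81 and 0.37, with a mean of 0.92 ± 0.17 (n = 4, adjusted p = 0.0106). It was the larger and the steadier of the pair that was called. A_44_P456738, which lies farther 5′ in the gene, had 0.45, 0.01, -0.15 and -0.31, with a mean of 0.00 ± 0.14 (n = 4, adjusted p = 0.994). Its values lay on both sides of 0, although it was well above background in both channels on all 4 arrays. A_44_P427702 carries the accession of an expressed sequence tag and is placed on the strand opposite to the other probes. It was well above background on 1 array only and was not tested. The call of A_44_P554454 was lost without replicate 1 (0.53, adjusted p = 0.141), without replicate 2 (0.50, adjusted p = 0.144), and slide 2 gave 0.18 by itself (adjusted p = 0.399). It was also lost with the slide as a random block (adjusted p = 0.0525) and when both channels had to be above background on all arrays (adjusted p = 0.0614).

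**Figure D2:**
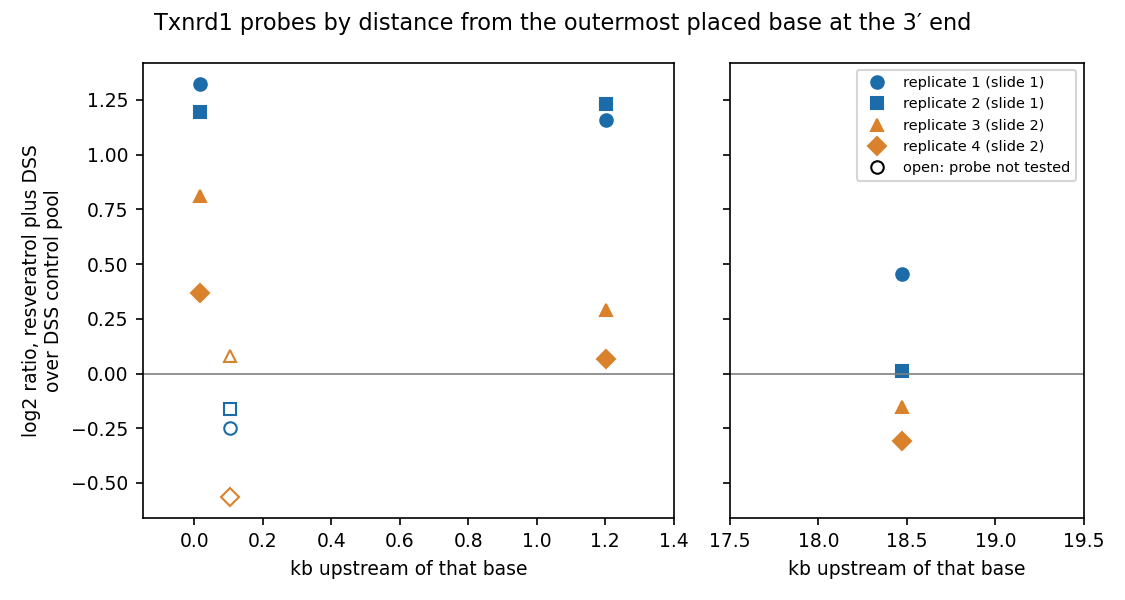
Log2 ratio of resveratrol plus DSS over the DSS control pool (y axis) on each array for the 4 Txnrd1 probes, set by their distance in kilobases from the outermost placed base at the 3′ end (x axis, with a break). The called probes lie in the left panel near that end, the probe farther 5′ in the right panel is spread around 0, and open symbols mark the probe that was not tested.

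Prdx1 encodes an abundant cytosolic peroxiredoxin, which reduces hydrogen peroxide with electrons from thioredoxin. It had log2 ratios of 1.04 and 1.10 on slide 1 and of 0.38 and 0.41 on slide 2. All 4 were above 0, and the slides did not overlap. The mean was 0.73 ± 0.16 (n = 4, adjusted p = 0.0158), a 1.66-fold higher level. The probe spans chr5:136988651-136990222 of rn3, on the plus strand. Another probe, for the locus LOC683813 at chr2:25627457-25627516, which the array names as similar to peroxiredoxin 1, resembles it closely. Capitals mark the bases the probes share when aligned, 51 of 56.
Prdx1 probe A_44_P398167: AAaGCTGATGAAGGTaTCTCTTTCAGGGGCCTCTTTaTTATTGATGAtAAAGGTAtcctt
LOC683813 probe A_44_P342334: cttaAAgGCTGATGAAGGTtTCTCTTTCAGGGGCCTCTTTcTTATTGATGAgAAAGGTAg
The longest shared run was 20 bases. The LOC683813 probe had log2 ratios of 0.98, 0.94, 0.50 and 0.66, with a mean of 0.77 ± 0.11 (n = 4, adjusted p = 0.00634). Its values were close to those of the Prdx1 probe on each array. How the signal divides between the loci was not tested. Prdx1 missed the threshold without replicate 1 (0.63, adjusted p = 0.0589), without replicate 2 (0.61, adjusted p = 0.0592), and slide 2 gave 0.39 by itself (adjusted p = 0.103).

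Neither gene of the glutathione system was called. Gclc encodes the catalytic subunit of the ligase that makes the first, rate-limiting step of glutathione synthesis. Its log2 ratios were 0.25, 0.13, 0.35 and 0.18, all above 0 within a narrow range. The mean was 0.23 ± 0.08 (n = 4, adjusted p = 0.0631). The spot was dim, with each channel well above background on 2 arrays. With an intensity trend in the variance prior Gclc passed the threshold at the same mean (adjusted p = 0.0301).

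Gpx2 encodes the gastrointestinal glutathione peroxidase, which is found mainly in gut epithelium. Its brighter probe, at chr6:99379510-99379569 of rn3, had log2 ratios of 0.37 on replicate 1, 0.12 on replicate 3 and -0.63 on replicate 4, with the spot on replicate 2 flagged. The signs were mixed and the mean was -0.05 ± 0.21 (n = 3, adjusted p = 0.869). On replicate 1 the spot was far dimmer than on the other arrays. Mean signals were 1321, 13290, 7799 and 7172 in Cy5 (resveratrol plus DSS) and 396, 3917, 3994 and 5224 in Cy3 (DSS control pool). The second probe, named through an expressed sequence tag, lies at chr6:99376098-99376157 on the opposite strand. It was lower on all 4 arrays, at -0.36, -0.47, -0.71 and -0.36, and was called lower (n = 4, adjusted p = 0.0133). On none of the arrays was its Cy5 signal well above background, so the difference is given as at least 1.39-fold lower. That number coincides with the fold of the measured means (-0.48 ± 0.09 on the log2 scale), because the probe's own Cy5 signal was under the lowest signal still called above background on 0 of 4 arrays. Gpx2 was the gene whose sign moved most with the processing. With flagged spots kept, its brighter probe had 0.40, 1.16, 2.12 and 0.16, with a mean of 0.96 (adjusted p = 0.0246), and without replicate 4 the mean was 0.25.

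Of the superoxide dismutases neither was called. Sod1 encodes the cytosolic copper-zinc enzyme, and its brighter probe had log2 ratios of 0.17, 0.78, -0.16 and -0.18. The slides were on opposite sides of 0. The mean was 0.15 ± 0.17 (n = 4, adjusted p = 0.489), and without replicate 2 it was -0.059. The second Sod1 probe had 0.41, 0.53, 0.20 and -0.01, with a mean of 0.28 ± 0.11 (n = 4, adjusted p = 0.0793). Sod2 encodes the manganese enzyme of mitochondria, which inflammatory cytokines induce through NF-kB. Its log2 ratios were -0.21, 0.08, -0.18 and -0.82, with a mean of -0.29 ± 0.15 (n = 4, adjusted p = 0.159). Of the arrays, 3 were below 0, and replicate 4 was the lowest.

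Cat encodes catalase, which breaks down hydrogen peroxide in peroxisomes. It had log2 ratios of 0.43 and 0.18 on slide 1 and of 0.74 and 0.86 on slide 2. All were above 0, and the higher pair was on slide 2, the reverse of Prdx1. The mean was 0.55 ± 0.13 (n = 4, adjusted p = 0.0206), a 1.47-fold higher level. Without replicate 1 the adjusted p was 0.0581 and without replicate 4 it was 0.0554, at means of 0.59 and 0.45. The rn3 strand of the Cat probe and of both Sod1 probes differs from the strand of these genes in GRCr8, while 94.2% of 5666 probes named by a RefSeq mRNA accession have the same strand in both. Which strand these 3 probes read was not tested.

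Nqo1 encodes the cytosolic quinone reductase often taken as the index target of NRF2. Its log2 ratios were 0.60, 0.24, 0.31 and 0.50, all above 0, and the slides overlapped. The mean was 0.41 ± 0.10 (n = 4, adjusted p = 0.0199), a 1.33-fold higher level. The slide means were 0.42 on slide 1 and 0.40 on slide 2. The call was lost without replicate 1 (0.35, adjusted p = 0.0861), without replicate 2 (0.47, adjusted p = 0.0566) and without replicate 4 (0.38, adjusted p = 0.0541).

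Hmox1 encodes haem oxygenase-1, which degrades haem to biliverdin, iron and carbon monoxide and is strongly induced by haem and in macrophages. It was the only one of the 10 genes called lower by its brightest probe. The array carries its probe, at chr19:13974162-13974221 of rn3, in 10 spots. The averaged log2 ratios were -0.50 and -0.48 on replicates 1 and 2, and all 10 spots on replicate 3 and all 10 on replicate 4 were flagged. The mean was -0.49 ± 0.13 (n = 2, adjusted p = 0.0438), from slide 1 alone, and its error leans on the variance of the other probes. When flagged spots were kept, which also moves the loess curve, the median of the spots was -0.31, -0.33, -0.75 and -0.19 on replicates 1 to 4. The spots of an array then ran between -0.72 and -0.21, -0.59 and -0.23, -0.99 and -0.54, and -0.41 and -0.07. Every spot on every array was below 0, with a standard deviation within an array of 0.11 to 0.16. Spots of 1 array share their RNA and labelling and count as 1 sample. When each array was centred on its median instead of by loess, Hmox1 was at -0.03 (adjusted p = 0.927), and it missed the threshold in the authors' deposited value table (-0.62, adjusted p = 0.058).

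**Figure D3:**
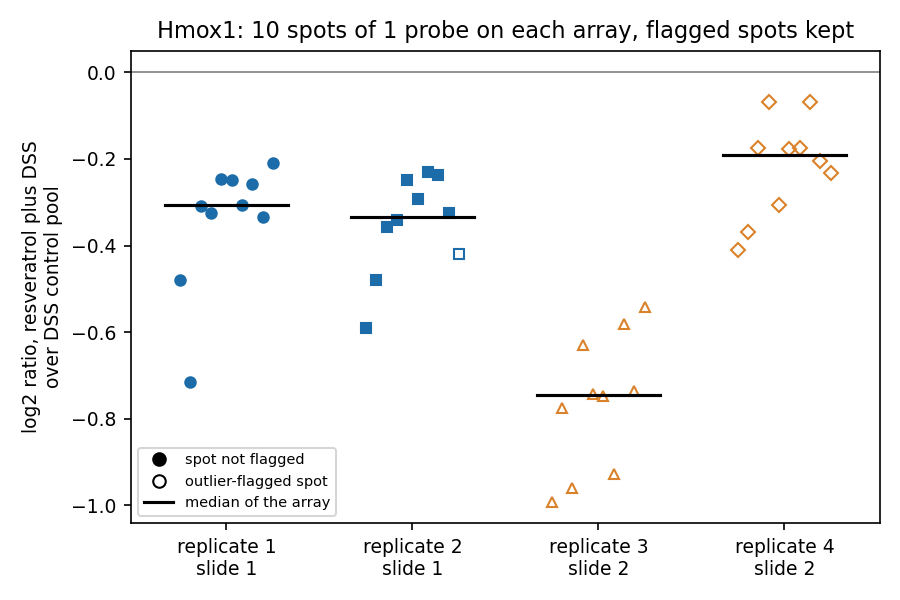
Log2 ratio of resveratrol plus DSS over the DSS control pool (y axis) of the 10 Hmox1 spots on each array, with flagged spots kept, and the median of each array as a bar. Open symbols are flagged spots, which include all those of slide 2, and every spot lies below 0.

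Several genes of the set differed between slides. The slide 1 and slide 2 means were 1.19 and 0.18 for the brightest Txnrd1 probe, 1.07 and 0.39 for Prdx1, 0.47 and -0.17 for Sod1, and 0.31 and 0.80 for Cat. In a contrast of slide 1 minus slide 2, chosen after seeing the data, 0 of 14227 probes passed in limma (0% called), and 2276 had an unadjusted p under 0.05. Txnrd1 differed by 1.01 ± 0.17 (adjusted p = 0.248). Slide and rats cannot be told apart, since each slide held arrays of different rats. The gaps also depended on the treatment of flagged spots. With these kept, the slides overlapped for Prdx1 and for Sod1 (0.33 and 0.91 on slide 1, 1.00 and 0.54 on slide 2). They stayed apart for the brightest Txnrd1 probe (1.28 and 1.34, against 0.92 and 0.50) and for Cat (0.44 and 0.19, against 0.92 and 0.98).

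Keeping the flagged spots moved the bright probes of slide 2 most, including probes whose own spots carried no flag. Prdx1 then had 1.74 and 1.19 on replicates 3 and 4, and 1.23 and 1.24 on replicates 1 and 2. The shift on replicate 3 was 1.36 for Prdx1, 1.16 for Sod1, 2.00 for Gpx2 and 0.63 for the brightest Txnrd1 probe. For the dim genes Gclc, Nqo1 and Sod2 the shift on that array was 0.10 or less. In that setting Txn1, Txnrd1, Prdx1, Gpx2, Sod1, Cat and Nqo1 were called higher and Hmox1 lower, where 33.7% of all probes were called higher and 30.6% lower. Median centring called the same 7 higher and none lower, where 36.3% of all probes were called higher and 9.75% lower. In that setting every gene of the set with 4 values had the same moderated standard error, 0.17. Txn1 and Gpx2, with 3 values, had 0.20. Calls and adjusted p under median centring thus rest on the mean and the number of arrays, not on a gene's own spread. Median centring also moved the median of all probes to 0.20, against -0.02 with loess. It changed the split of all calls to 6856 higher and 1842 lower, against 4601 higher and 4295 lower. Directions here hold relative to the centring. On slide 1 alone, 6 of the 10 genes were called higher and 2 lower, namely Hmox1 and, by its second probe, Gpx2, where 33.2% and 25.5% of all probes were. On slide 2 alone, 1 of the 8 testable genes was called higher, where 5.16% of all probes were. That gene was Cat. A wider standard error, larger by the square root of 2, gives the control pool an error as large as that of the arrays' mean. With it none of the 10 was called, where 7.73% of all probes were called higher and 3.86% lower.

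**Figure D4:**
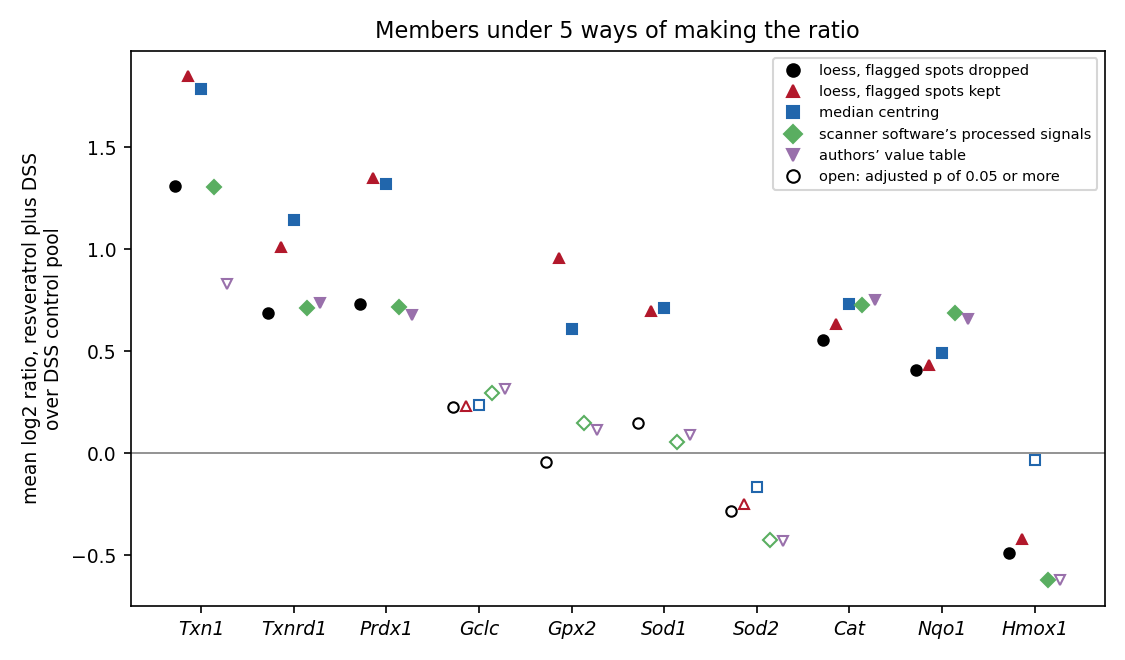
Mean log2 ratio of resveratrol plus DSS over the DSS control pool (y axis) for each of the 10 genes under 5 ways of making the ratio, with filled symbols for an adjusted p below 0.05. Txn1, Txnrd1, Prdx1, Cat and Nqo1 lay above 0 in all 5, Sod2 and Hmox1 below 0, and Gpx2 changed sign.

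RefSeq promoter windows of assembly GRCr8, 250 bases before to 50 after a start, were found for 9 of the 10 genes, with 10 windows. The core of the antioxidant response element was searched as TGACNNNGC on both strands. It was found in 1 window each of Txnrd1, Prdx1, Gpx2 and Sod2. It is held by 12.1% of all 33469 promoter windows. The windows of the called genes Txnrd1 and Prdx1 and of the uncalled Gpx2 are shown with the match in capitals.
Txnrd1, chr7:22755855-22756154, minus strand: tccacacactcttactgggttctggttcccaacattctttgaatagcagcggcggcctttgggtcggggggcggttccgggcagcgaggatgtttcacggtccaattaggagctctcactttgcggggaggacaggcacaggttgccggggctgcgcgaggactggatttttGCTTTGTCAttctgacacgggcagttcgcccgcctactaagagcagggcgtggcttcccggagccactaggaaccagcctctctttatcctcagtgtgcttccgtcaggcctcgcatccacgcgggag
Prdx1, chr5:135383656-135383955, plus strand: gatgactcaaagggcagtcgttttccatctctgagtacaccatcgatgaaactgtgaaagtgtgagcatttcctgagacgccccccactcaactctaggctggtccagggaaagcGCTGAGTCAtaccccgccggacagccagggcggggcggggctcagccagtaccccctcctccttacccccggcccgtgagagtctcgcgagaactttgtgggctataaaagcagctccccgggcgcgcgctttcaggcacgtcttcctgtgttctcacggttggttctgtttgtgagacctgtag
Gpx2, chr6:101229984-101230283, minus strand: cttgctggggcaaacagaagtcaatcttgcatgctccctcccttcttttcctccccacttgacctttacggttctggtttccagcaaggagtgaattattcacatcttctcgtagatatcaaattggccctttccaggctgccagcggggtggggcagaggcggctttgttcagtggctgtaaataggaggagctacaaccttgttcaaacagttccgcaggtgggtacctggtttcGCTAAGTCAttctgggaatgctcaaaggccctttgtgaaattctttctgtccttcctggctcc
The match begins at position -78 from the start in Txnrd1, -135 in Prdx1 and -13 in Gpx2. In Prdx1 it overlaps an AP-1 site, TGANTCA, of which that window holds 2 and which 7.33% of all windows hold. Txn1, Cat and Nqo1, which were called, had no match in their windows. A match describes the letters only, and binding was not measured.

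The regulators of the pathway and the other antioxidant genes were read in the same fit. Of 10 NRF2 regulators tested, 3 were called higher, where 25.7% of named genes were, and none lower, with a median log2 ratio of 0.14. Keap1 was at 0.62 ± 0.08 (n = 4, adjusted p = 0.00564), with 0.71, 0.69, 0.54 and 0.53 on the arrays. Rbx1, of the same ligase, was at 0.57 ± 0.12 (adjusted p = 0.0147), and Nfe2l1, encoding the related factor NRF1, at 0.50 ± 0.09 (adjusted p = 0.00985). Nfe2l2 itself was not called, at 0.12 ± 0.15 (n = 4, adjusted p = 0.527), with arrays on both sides of 0.

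Of the other glutathione genes 7 of 10 could be tested, and 4 were higher and 1 lower, where 25.7% and 19.6% of named genes were, and the median was 0.43. Gpx4, which reduces lipid hydroperoxides, was at 0.78 ± 0.18 (adjusted p = 0.0204). Gsr, which regenerates reduced glutathione, was at 0.76 ± 0.12 (adjusted p = 0.00718), and the mitochondrial glutaredoxin gene Glrx2 at 0.43 ± 0.08 (adjusted p = 0.00993). Gpx3, the secreted peroxidase, was lower at -0.31 ± 0.09 (adjusted p = 0.0321), given as at least 1.24-fold for the same reason, its Cy5 signal never being well above background. Its call was lost with the slide as a random block (adjusted p = 0.0564) and under median centring (adjusted p = 0.166). Gclm, the partner subunit of Gclc, and the cystine transporter Slc7a11 were on the array but had no probe that could be tested.

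Of 11 further thioredoxin, peroxiredoxin and superoxide dismutase genes 5 were higher and 2 lower, against 25.7% and 19.6% of named genes, and the median was 0.14. Prdx6 was at 0.86 ± 0.12 (adjusted p = 0.00613), the mitochondrial Prdx3 at 0.73 ± 0.10 (adjusted p = 0.006) and Prdx4 of the endoplasmic reticulum at 0.54 ± 0.10 (adjusted p = 0.0122). Sod3, the extracellular enzyme, was lower at -0.58 ± 0.12 (adjusted p = 0.0154), but under median centring it was at -0.33 (adjusted p = 0.108). The other gene called lower was Srxn1, encoding sulfiredoxin, a target of NRF2 that repairs overoxidized peroxiredoxins. It was at -0.60 ± 0.14 (adjusted p = 0.0197) and was picked out after its value was seen. Under median centring Srxn1 was at -0.31 (adjusted p = 0.137), and without replicate 2 the adjusted p was 0.0623.

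Of the NADPH supply genes 2 of 5 tested were higher, where 25.7% of named genes were, and none lower, malic enzyme Me1 at 0.67 ± 0.12 (adjusted p = 0.011) and Idh1 at 0.33 ± 0.08 (adjusted p = 0.0217). Of 9 haem, iron, quinone and carbonyl genes 5 were higher and 2 lower, against 25.7% and 19.6% of named genes, and the median was 0.36. The ferritin light chain gene Ftl1 was at 0.94 ± 0.12 (n = 3, adjusted p = 0.00634), with its Cy5 spot saturated on 1 array and its other 4 probes between 0.22 and 1.00. The epoxide hydrolase gene Ephx1 was at 0.48 ± 0.10 (adjusted p = 0.0148). The constitutive haem oxygenase gene Hmox2 was at 0.36 ± 0.09 (adjusted p = 0.0262), with its second probe at 0.22 and not called. Blvrb, encoding a biliverdin reductase, was lower at -0.72 ± 0.13 (n = 3, adjusted p = 0.0138).

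Across these 5 lists 42 of 47 genes could be tested, and 19 were higher, 5 lower and 18 not called, where 25.7% of named genes were called higher and 19.6% lower. Among oxidant-producing enzymes 3 of 10 could be tested, and Cyba, a subunit of NADPH oxidases, was higher at 0.86 ± 0.08 (n = 4, adjusted p = 0.00409). Of the 18 genes named here by rule from the 6 lists, 10 lost their call without replicate 1 (adjusted p between 0.0515 and 0.124) and 7 without replicate 2 (between 0.0591 and 0.128). Gpx3 also lost it without replicate 4 (adjusted p = 0.0805), and with replicate 3 left out none did. With the wider standard error 12 of the 18 lost it (between 0.0539 and 0.12), and on slide 2 alone 14 of 16 did (between 0.0543 and 0.254).

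Markers of cell types moved on the same arrays, where 25.7% of named genes were called higher and 19.6% lower. Of 10 colonic epithelium markers 6 were higher and none lower, with a median of 0.84 and array medians between 0.32 and 1.07. Of 7 macrophage and monocyte markers tested 5 were lower and none higher (median -0.76, arrays between -0.80 and -0.46). All 3 neutrophil markers tested were lower (median -2.06, arrays between -3.03 and -1.43), with 1 of 5 on the array below background in both channels throughout. Of 6 fibroblast markers 5 were lower (median -1.18), and of 4 erythrocyte markers 3 were lower and Slc4a1, encoding an anion exchanger, was higher at 1.23. Not every marker followed its list: Cd14 was at 0.24, Ptprc at 0.20 and Col1a1 at 0.22, none of them called. The epithelial Cdh1 was at 0.08, with arrays from -0.64 to 0.91, and Cdx2 at 0.09 on 2 arrays, neither called. Some markers called lower were dim: Cy5 was well above background on 0 arrays for Mrc1 and on 1 for Dcn and Pdgfra. The part of these cell types in the ratios of the antioxidant genes was not tested.

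**Figure D5:**
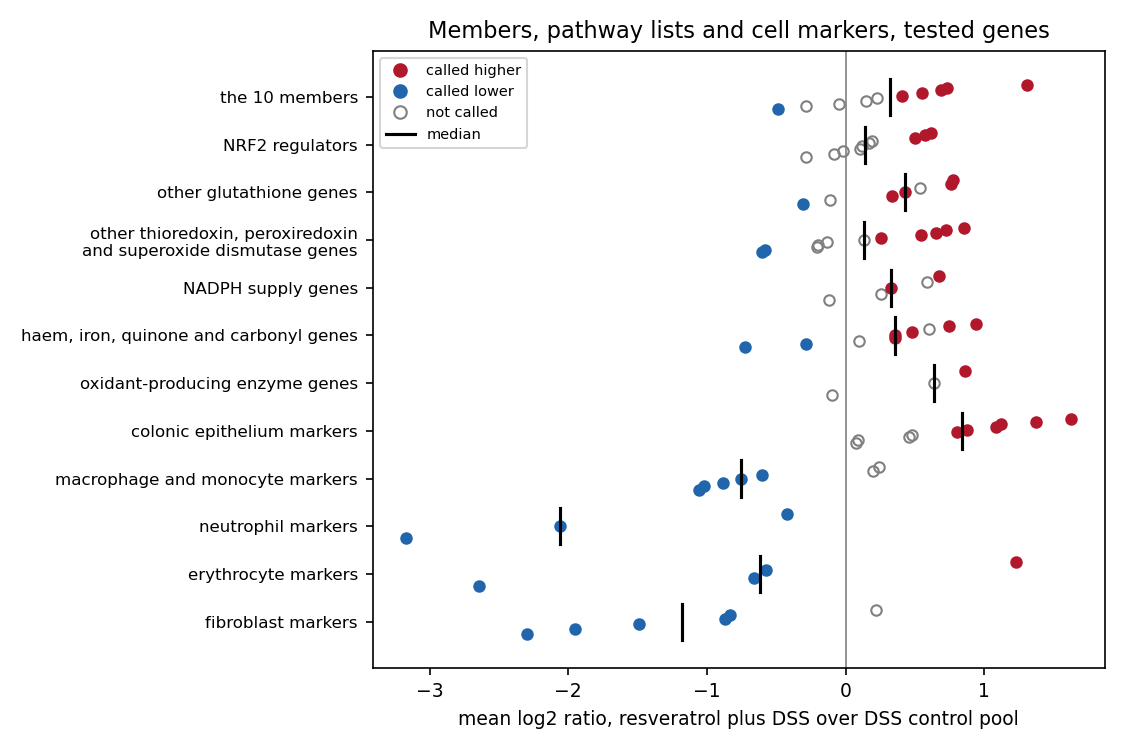
Mean log2 ratio of resveratrol plus DSS over the DSS control pool (x axis) of every tested gene in the set of 10, the 6 pathway lists and the 5 cell marker lists, with the median of each as a bar and calls at an adjusted p below 0.05 in colour. The medians were 0.32 for the 10 genes, 0.84 for epithelial markers and -2.06 for neutrophil markers.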

How the data were processed

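RNA of colon mucosa was measured on 4 two-colour Agilent arrays with 45018 spots (1639 controls) and probes of 60 bases. Each deposited scanner file holds intensity values per spot, and per the file headers they came from version 9.5.3.1 of Agilent Feature Extraction, with probe positions in the rn3 build. The deposited log10 ratios of the scanner were not used. The authors' value table holds log2 values of 24197 probes, all found on the array. They correlate at 0.98 to 0.99 with Cy5 over Cy3 from the scanner, which gave scale and direction. Its columns have medians of -0.01, -0.01, 0.09 and -0.02, and its centring is unknown. Agilent Feature Extraction and limma are the tools listed in the submitters' processing notes.

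With R 4.3.3 and limma 3.58.1, mean signals were corrected by normexp (offset 50) and normalized by loess. Control spots and spots flagged as outliers got weight 0, and repeated spots were averaged. Of 41012 probes, 18896 entered, each well above background on 3 or more arrays in either channel and measured on 2 or more. Mean log2 ratios were tested against 0 with lmFit and eBayes (two-sided). The labels give no replicate numbers, and replicates were numbered by accession. This follows the rat numbers in the labels, from rats 1 and 2 on replicate 1 to rats 7 and 8 on replicate 4. Each array held different rats.

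The 10 genes and all lists were chosen with earlier results of these data known. Every probe of the 10 genes is reported. Of each other list the called genes with the smallest adjusted p, up to 4, are named. Genes were named through a RefSeq table of GRCr8. Tested on simulated data of 18896 probes, with 50 probes for each size and direction, the fit found 48% of those raised by 1 and 46% of those lowered by 1. At a size of 2 it found 78% and 68%, and it made 0 false calls. Far fewer probes were changed there than the 47.1% called in the measured data, so these shares do not carry over to it. Simulated errors were drawn independently for each array, with no slide, dye or pool effect. The 0 false calls therefore say nothing about such effects. The precision is limited by the 4 arrays.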

Additional observations from a re-analysis of the deposited data

How the results depend on the processing

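Of the 10 genes, Txn1, Txnrd1, Prdx1, Cat, Nqo1 and Gclc kept a positive mean and Sod2 and Hmox1 a negative one under every alternative run. Gpx2 turned positive with the scanner's processed signals (0.15), median centring (0.61), flagged spots kept (0.96), array weights (0.088), the authors' table (0.11) and without replicate 4, where leaving out 1 array gave -0.25 to 0.25. Sod1 turned negative on slide 2 alone (-0.17) and without replicate 2, where leaving out 1 array gave -0.059 to 0.26. The count of the 10 called higher was 5, where 24.3% of all probes were. It was 3 of 7 testable with both channels above background on all arrays (19.7% of all probes). On slide 2 alone it was 1 of 8 (5.16%), and with the wider standard error it was 0 (7.73%). With the slide as a random block it was 4 (19.9%). Leaving out 1 array gave 0 to 5, where 12.0% to 25.4% of all probes were called higher. The count called lower, 1, became 2 on slide 1 alone and 0 under median centring, with both channels above background, an intensity trend in the prior, the slide as a random block, slide 2 alone, the wider standard error and the authors' table. Leaving out 1 array gave 0 to 1. Over all probes, 4601 higher and 4295 lower became 2587 and 1975 with both channels above background, 749 and 1006 on slide 2 alone, and 1460 and 730 with the wider standard error. Median centring gave 1842 lower. Leaving out 1 array gave 1956 to 4755 higher and 1421 to 4221 lower. The wider standard error raises every unadjusted p by construction. Fewer probes or arrays entered for the filter, single slides and left-out arrays, and for the remaining settings the cause was not tested. Hmox1 could not be tested without replicate 1 or 2 or on slide 2 alone, where it has under 2 values. No paired analysis was possible because the labels give 1 group, set against a control pool. Signal over background limits Gclc and the second Gpx2 probe.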

Other observations

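Probes carrying the hexamers CACCTC or ACCTCA, which earlier work on these data had found among the highest ratios, made up 3.80% of tested probes, with a median log2 ratio of 0.20, against -0.03 for probes without them. None of the 14 tested probes of the antioxidant set carried either hexamer. Among 29 sets of 4 array values examined for a lone outlying array by Dixon's criterion, covering probes of the 10 genes and the named genes of the lists, 0 exceeded the critical value.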
